A study of Mus musculus with 12 samples.

Results

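The genes described here are 38 mouse genes of the response to low oxygen and of glycolysis. They were chosen by name, with earlier results of these data known, and read in every library of an RNA sequencing study of skin. The list runs from glucose uptake through the glycolytic enzymes to lactate export, and adds the oxygen sensors, the HIF alpha subunits and widely used target genes of HIF. All 38 were found among the 23235 gene symbols of the deposited files, each in 1 row and each with an accepted estimate in all 12 libraries. The study applied camphor white oil (CWO), an essential oil of the camphor tree, to the skin of FVB/NJ mice, an inbred strain, and asked what it does in normal epidermis and in papillomas, which are benign, pre-malignant skin tumours.

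There were 4 groups of 3 libraries. Papillomas were raised on mice shaved at 6 to 7 weeks of age, with 400 nmol of the carcinogen DMBA and then repeated doses of 10 nmol of the tumour promoter TPA. Those mice then received either 20% CWO or acetone, the vehicle, for 6 weeks, and each library came from 4 tumours pooled from 1 of 3 mice. Every papilloma library therefore carries the same DMBA and TPA exposure, also with vehicle. Epidermis came from mice whose age the labels do not give, 24 h after 400 µL of 20% CWO or of acetone, and was lifted from the skin with ammonium thiocyanate. Epidermis was thus exposed for 24 h and papillomas for 6 weeks, so tissue, time and number of doses cannot be told apart. The labels do not say that each epidermis sample is a separate mouse, so p-values there measure the spread between these samples.

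Cells sense oxygen through prolyl hydroxylases, the Egln enzymes, which mark the HIF alpha subunits for destruction while oxygen is present. When oxygen is short the alpha subunits persist, pair with ARNT and bind the core ACGTG or GCGTG near genes for glucose transport, glycolysis, lactate export, mitophagy, blood vessel growth and collagen processing. Because this control acts on HIF protein, the mRNA of Hif1a or Epas1 does not report HIF activity. Epidermis has no blood vessels of its own, and keratinocytes are known to draw heavily on glycolysis.

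The promoter sequences below are those of the 4 genes with the smallest p-values in CWO-treated epidermis, shown because the HIF core can be read in them directly. Each is the 250 bases upstream of the annotated start, 5′ to 3′ on the gene's strand, from RefSeq on GRCm38.p6, with every ACGTG or GCGTG on either strand in capitals (so CACGT and CACGC mark the core on the other strand). They lie at chr9:121857797-121858046 on the minus strand (Higd1a), chrX:106186850-106187099 on the plus strand (Pgk1), chr16:36071562-36071811 on the minus strand (Fam162a) and chr12:54203875-54204124 on the minus strand (Egln3).

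Higd1a: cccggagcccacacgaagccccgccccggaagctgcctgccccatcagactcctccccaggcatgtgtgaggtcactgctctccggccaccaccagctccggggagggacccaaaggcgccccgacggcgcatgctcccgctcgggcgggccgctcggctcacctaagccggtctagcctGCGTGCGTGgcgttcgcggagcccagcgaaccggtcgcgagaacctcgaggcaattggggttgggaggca
Pgk1: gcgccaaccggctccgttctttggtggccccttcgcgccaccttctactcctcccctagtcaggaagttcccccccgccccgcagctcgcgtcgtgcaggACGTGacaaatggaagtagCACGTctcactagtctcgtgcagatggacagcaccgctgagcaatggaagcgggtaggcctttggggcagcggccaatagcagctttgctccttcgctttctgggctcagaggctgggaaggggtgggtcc
Fam162a: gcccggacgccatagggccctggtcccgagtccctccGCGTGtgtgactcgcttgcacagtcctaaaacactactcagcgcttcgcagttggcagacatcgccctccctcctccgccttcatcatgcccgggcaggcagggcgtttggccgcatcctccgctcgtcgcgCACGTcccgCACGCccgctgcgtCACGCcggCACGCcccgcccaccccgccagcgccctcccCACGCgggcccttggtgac
Egln3: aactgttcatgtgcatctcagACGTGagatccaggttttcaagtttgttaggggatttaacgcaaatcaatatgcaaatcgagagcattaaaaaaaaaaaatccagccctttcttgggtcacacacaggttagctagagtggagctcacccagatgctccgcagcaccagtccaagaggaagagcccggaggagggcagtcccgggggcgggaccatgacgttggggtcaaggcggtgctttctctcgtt

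In Higd1a the cores begin 70 and 66 bases before the start and overlap by 1 base. In Pgk1 an ACGTG begins 150 bases before the start, with the reverse complement 131 bases before it. Fam162a holds 6 cores in the window and Egln3 holds 1, which begins 229 bases before the start. Windows of 250 bases before to 50 after the start were matched for 33 of the 38 genes, Ero1l under its current symbol Ero1a. No window was matched for Bnip3l, Plod2, Epas1, Ndrg1 and Bhlhe40. A core was present in 31 of the 33 (93.9%), against 12628 of 27025 genes (46.7%) with any window of that length, which were not matched for base composition. It was in the windows of all 16 matched genes that rose with CWO in epidermis and of 15 of the 17 others, so its presence did not separate them. Gpi1 and Tpi1 held none. A match is a description of the letters and not a bound site.

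Levels are FPKM, fragments per kilobase of transcript and mega fragments, from libraries of 11.1 to 24.6 M (mega) recovered fragments. Mean levels of the 38 genes ran up to 1256 FPKM for Aldoa in CWO epidermis and down to 0.263 FPKM for Plod2 in vehicle epidermis. The lowest values rested on few fragments, namely 5.20 to 515 for Plod2, 17 to 368 for Adm and 19 to 181 for Car9 across the libraries. Keratinocyte markers were present throughout, with all 10 above 1 FPKM in every library, but differed between tissues. In vehicle papillomas 3 were higher and 4 lower than in vehicle epidermis (log2 fold changes -5.63 to 2.46). Among CWO libraries 2 were higher and 4 lower in papillomas (-6.07 to 1.92). Skeletal muscle RNA was present in epidermis and differed between its libraries. The summed level of 19 muscle genes was 4257, 3343 and 4335 FPKM in CWO epidermis, against 12518, 19746 and 4021 in vehicle epidermis 1, 2 and 3, while papillomas had 9.75 to 72.3 FPKM with CWO and 57.2 to 454 with vehicle. All 19 muscle genes had negative log2 fold changes in CWO epidermis (median -1.31), and 0 of 19 passed the test. Of 4 muscle forms of sugar-breakdown genes (Pfkm, Pgam2, Eno3 and Pygm) all were negative too (median -1.27), and 0 passed.

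In epidermis, CWO was accompanied by higher levels of hypoxia response and glycolysis genes. Of 37 tested, 18 rose, 0 fell and 19 did not pass limma's test at a Benjamini-Hochberg adjusted p under 0.05, where 1.81% of all 12289 genes tested rose and 0.179% fell. Because the list was chosen with earlier results of these data known, its excess over all genes is a description and not a test. The median log2 fold change was 0.93 over the 37 genes and 0.024 over all genes tested, and 36 of the 37 values were positive. Car9 is among the 18 although it passed the filter on low values, an FPKM of 1 in 3 libraries, only through its CWO libraries. Of the other 36 genes 17 rose, with a median of 0.92. All 3 CWO libraries lay above all 3 vehicle libraries for 29 of the 37, where this held for 12.1% of all genes. In bulk tissue, a change in the number of expressing cells and a change in RNA per cell cannot be told apart.

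**Figure D1:**
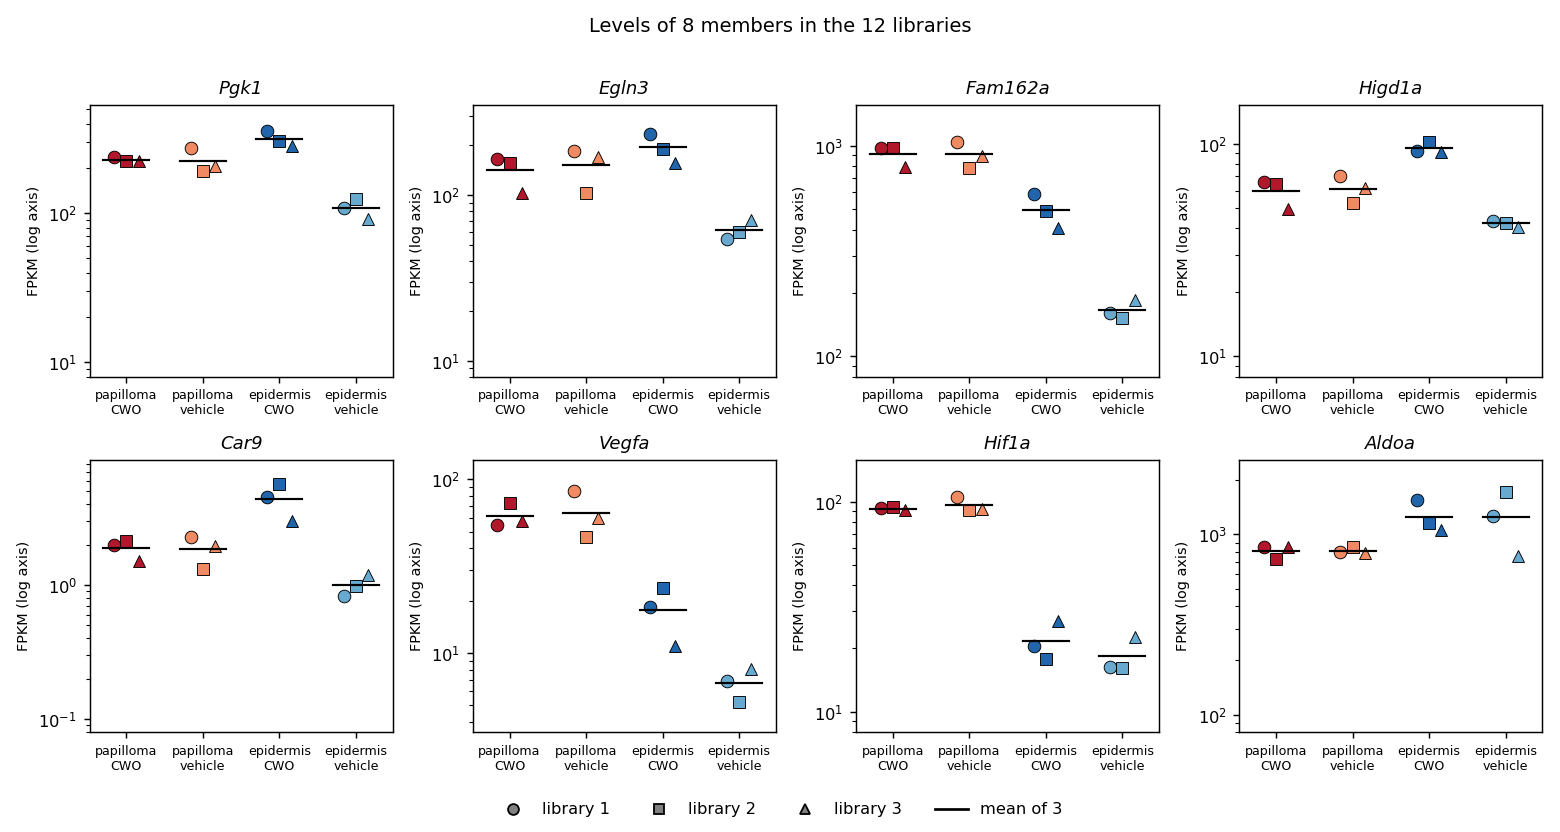
FPKM (log axis) of 8 genes in the 12 libraries, by group from papilloma CWO and papilloma vehicle to epidermis CWO and epidermis vehicle; markers are libraries 1 to 3 and lines are group means. For Pgk1, Egln3, Fam162a, Higd1a and Car9 all 3 CWO epidermis libraries lie above all 3 vehicle epidermis libraries, while the papilloma groups overlap; Hif1a is high in papillomas and low in both epidermis groups.

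Glucose enters keratinocytes mainly through the transporter Slc2a1 (GLUT1), and lactate leaves through the monocarboxylate transporter Slc16a3 (MCT4). Slc16a3 had 42.8, 32.6 and 25.4 FPKM in CWO epidermis, against 12.1, 19.1 and 10.4 in vehicle epidermis. The groups did not overlap, and Slc16a3 rose with a log2 fold change of 1.23 (SE 0.245, adjusted p = 0.0462). Its call ended without vehicle 1, without CWO 1 or without CWO 2 (adjusted p up to 0.171). Slc2a1 had 128, 96.3 and 71.5 FPKM with CWO and 46.6, 41.9 and 62.03 with vehicle. These did not overlap either, but the difference did not pass (log2 fold change 0.94, SE 0.222, adjusted p = 0.0807).

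Of the 12 glycolytic enzymes, 4 rose and 8 did not pass, with a median log2 fold change of 0.87. The strongest was Pgk1, phosphoglycerate kinase, which makes the pathway's first ATP. Pgk1 had 357, 305 and 282 FPKM with CWO, against 108, 125 and 91.2 with vehicle. Every CWO library held more than 2 times the level of every vehicle library, and the log2 fold change was 1.54 (SE 0.146, adjusted p = 0.00411). Pgam1, the phosphoglycerate mutase of the next step, had 306, 271 and 219 FPKM with CWO, against 96.8, 115 and 129 with vehicle, again without overlap. Its log2 fold change was 1.22 (SE 0.157, adjusted p = 0.00922). Both calls held when any 1 library was left out. The muscle form Pgam2 held 74.6%, 79.3% and 39.9% of Pgam1 plus Pgam2 in vehicle 1, 2 and 3, against 21.8% to 30.0% with CWO. A change in their sum was not tested.

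Phosphofructokinase commits sugar to glycolysis, and its liver and platelet type subunits both rose. Pfkl had 76.7, 73.98 and 46.2 FPKM with CWO, against 31.4, 32.5 and 30.9 with vehicle. Pfkp had 76.7, 79.5 and 56.04 FPKM with CWO, against 34.8, 31.1 and 38.9 with vehicle. Neither gene's groups overlapped, and CWO 3 was the lowest CWO library for both. The log2 fold changes were 1.00 (SE 0.184, adjusted p = 0.0363) for Pfkl and 0.99 (SE 0.155, adjusted p = 0.0210) for Pfkp. Both calls ended without vehicle 1, vehicle 2, CWO 1 or CWO 2, with adjusted p up to 0.153 for Pfkl and 0.110 for Pfkp. The muscle type subunit Pfkm held 58.7%, 63.4% and 30.9% of the summed Pfkl, Pfkp and Pfkm level in vehicle epidermis 1, 2 and 3. It held 16.9% and 25.0% in CWO 2 and 3, and CWO 1 had no accepted Pfkm value. A change in the summed level was not tested.

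The other 8 enzymes had positive log2 fold changes that did not pass. Gpi1, which turns glucose phosphate into fructose phosphate, lay at the threshold with 0.74 (adjusted p = 0.05001). Eno1 (enolase), Tpi1 (triose phosphate isomerase) and Ldha (lactate dehydrogenase) had values of 0.95, 0.93 and 0.80. For these 4 genes the lowest CWO library lay above the highest vehicle library. Gapdh (glyceraldehyde phosphate dehydrogenase), the hexokinases Hk1 and Hk2 and the aldolase Aldoa overlapped between groups, at 0.40, 0.29, 0.22 and 0.063. Aldoa, an aldolase that muscle makes in bulk, had 1553, 1156 and 1059 FPKM with CWO and 1271, 1722 and 762 with vehicle. Its highest and its lowest epidermis value both came from vehicle libraries.

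**Figure D2:**
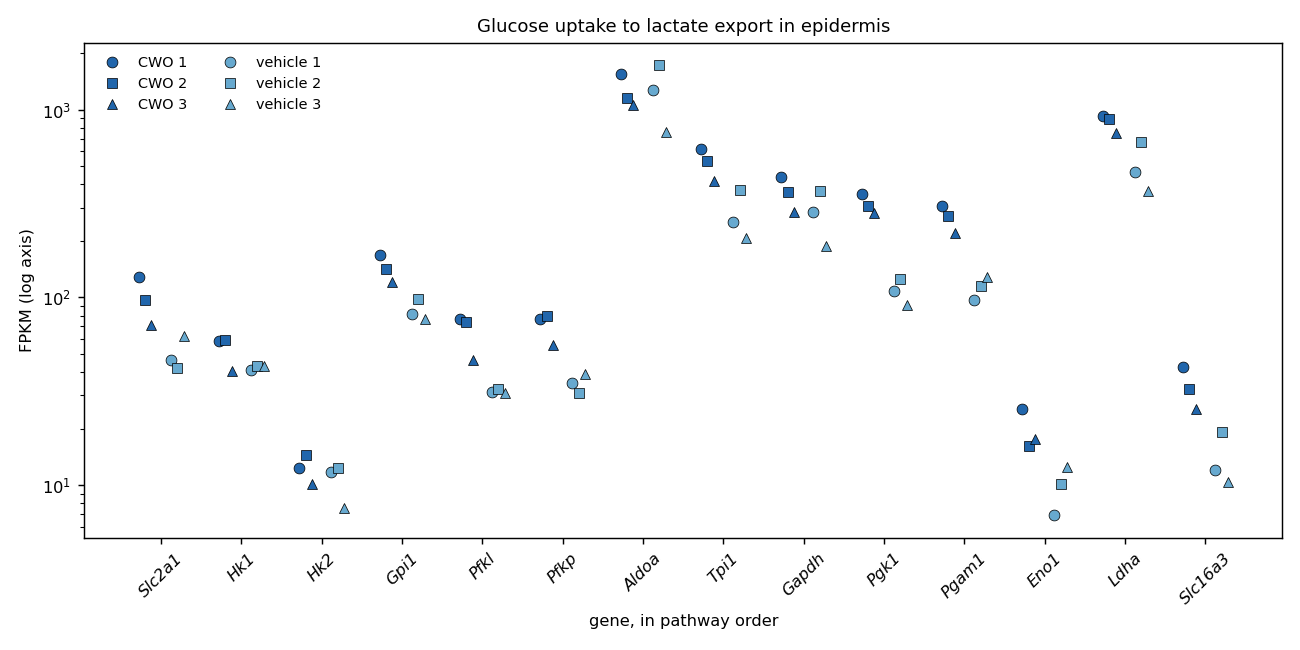
FPKM (log axis) of 14 genes from glucose uptake to lactate export in the 6 epidermis libraries, CWO left of vehicle for each gene. Vehicle 1 and 2 stand high for Aldoa, and vehicle 2 for Tpi1, Gapdh and Ldha, while Pgk1 and Pgam1 separate the groups widely.

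Of 3 enzymes that regulate carbon flow, 2 rose. Pfkfb3, which makes the sugar bisphosphate that activates phosphofructokinase, had 18.03, 20.2 and 15.7 FPKM with CWO, against 9.05, 6.49 and 8.00 with vehicle. The groups did not overlap and Pfkfb3 rose with a log2 fold change of 1.10 (SE 0.152, adjusted p = 0.0126), a call that ended without CWO 1 (adjusted p = 0.0711). Pdk1, the kinase that switches off pyruvate dehydrogenase, had 22.8, 23.8 and 23.4 FPKM with CWO, against 16.7, 16.1 and 16.1 with vehicle. Its log2 fold change of 0.49 (SE 0.0983, adjusted p = 0.0484) was the smallest called, and the call ended whichever library was left out (adjusted p 0.0616 to 0.197). Pfkfb4, a related bifunctional enzyme, had 5.99, 8.79 and 4.76 FPKM with CWO and 4.34, 4.66 and 4.26 with vehicle, which did not pass (0.44, adjusted p = 0.353).

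The oxygen sensors Egln3 and Egln1, which are HIF targets themselves, rose while the HIF alpha subunits did not pass. Their relative Egln2 is not on the list and did not pass. Egln3 had 234, 190.3 and 157 FPKM with CWO, against 54.2, 60.1 and 70.7 with vehicle. Egln1 had 107, 84.1 and 84.6 FPKM with CWO, against 45.8, 49.9 and 48.8 with vehicle. For both, the lowest CWO library was well above the highest vehicle library. The log2 fold changes were 1.62 (SE 0.164, adjusted p = 0.00450) for Egln3, the largest of the 37 on the log2(FPKM + 1) scale, and 0.91 (SE 0.122, adjusted p = 0.0111) for Egln1, whose call ended without vehicle 1 (adjusted p = 0.0529). Hif1a, the alpha subunit found in most cells, had 20.6, 17.8 and 26.99 FPKM with CWO and 16.4, 16.1 and 22.7 with vehicle. Epas1, the alpha subunit also called HIF2 alpha, had 6.14, 7.79 and 7.62 FPKM with CWO and 9.40, 8.04 and 7.65 with vehicle. Both overlapped between groups, with log2 fold changes of 0.23 (SE 0.185, adjusted p = 0.658) and -0.20 (SE 0.140, adjusted p = 0.611). Epas1 was the 1 gene of the 37 with a negative value.

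Of 4 genes acting at mitochondria, 3 rose. Fam162a encodes a mitochondrial protein linked, in human cells, to death under low oxygen. It had 590.4, 491 and 407 FPKM with CWO, against 161, 152 and 185 with vehicle. Higd1a, a protein of the respiratory chain complexes, had 92.2, 102 and 91.7 FPKM with CWO, against 43.2, 42.5 and 40.5 with vehicle, with the smallest adjusted p of the list. Bnip3, a receptor that marks mitochondria for removal, had 105, 85.2 and 125 FPKM with CWO, against 44.04, 39.2 and 44.95 with vehicle. None of the 3 overlapped, and their calls held whichever library was left out. The log2 fold changes were 1.56 (SE 0.155, adjusted p = 0.00450) for Fam162a, 1.16 (SE 0.0970, adjusted p = 0.00269) for Higd1a and 1.26 (SE 0.147, adjusted p = 0.00739) for Bnip3. Bnip3l, the related mitophagy receptor, did not pass (0.51, adjusted p = 0.147).

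Car9, the membrane carbonic anhydrase that handles exported acid, had 4.51, 5.70 and 2.99 FPKM with CWO, against 0.827, 0.986 and 1.19 with vehicle. The groups did not overlap, and the log2 fold change, given as a description, was 1.40. This gene is low, so the value on the log2(FPKM + 1) scale understates the ratio of the means, which was 4.39. Its call ended without vehicle 1, vehicle 2 or CWO 1. Vegfa, the vascular growth factor, had 18.3, 23.7 and 10.9 FPKM with CWO, against 6.86, 5.23 and 8.10 with vehicle. Its groups did not overlap, but the spread among CWO libraries was wide and the difference did not pass (1.22, SE 0.265, adjusted p = 0.0639). Adm, the vessel-relaxing peptide adrenomedullin, averaged 1.73 ± 0.292 FPKM with CWO and 1.41 ± 0.346 with vehicle (SD, n = 3 each) and did not pass.

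In collagen and protein folding, Ero1l and P4ha2 rose. Ero1l, the oxidase that drives disulfide bond formation, had 31.2, 30.5 and 26.02 FPKM with CWO, against 11.1, 11.4 and 13.6 with vehicle. P4ha2, a catalytic subunit of collagen prolyl hydroxylase, had 16.6, 14.9 and 10.6 FPKM with CWO, against 6.64, 5.83 and 5.49 with vehicle. Neither overlapped, with log2 fold changes of 1.21 (SE 0.127, adjusted p = 0.00547) and 1.09 (SE 0.173, adjusted p = 0.0217). The P4ha2 call ended without vehicle 1, vehicle 2, CWO 1 or CWO 2 (adjusted p up to 0.108). P4ha1, the sister subunit, did not pass (0.60, adjusted p = 0.0621). Plod2, a lysyl hydroxylase of collagen, was below the filter on low values in epidermis. Plod2 had 0.342, 0.360 and 0.440 FPKM with CWO and 0.338, 0.190 and 0.261 with vehicle, so the groups did not overlap (exact permutation p = 0.1, two-sided, the smallest that 3 against 3 allows).

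Among genes of stress, chromatin and transcription, 3 of 6 rose. Ndrg1, a stress-responsive gene tied to differentiation, had 162, 139 and 143 FPKM with CWO, against 79.8, 79.7 and 76.97 with vehicle. Ankrd37, an ankyrin repeat protein, had 31.01, 32.4 and 24.5 FPKM with CWO, against 11.5, 8.50 and 11.6 with vehicle. Bhlhe40, a transcriptional repressor, had 47.7, 33.6 and 36.8 FPKM with CWO, against 18.7, 18.7 and 19.1 with vehicle. All 3 separated completely. The log2 fold changes were 0.90 (SE 0.101, adjusted p = 0.00669) for Ndrg1, 1.40 (SE 0.159, adjusted p = 0.00690) for Ankrd37 and 1.01 (SE 0.139, adjusted p = 0.0126) for Bhlhe40, and the Bhlhe40 call ended without vehicle 1 or vehicle 2 (adjusted p up to 0.0555). The histone demethylase Kdm3a, the MYC antagonist Mxi1 and the mTOR inhibitor Ddit4 did not pass, at 0.50, 0.086 and 0.41.

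**Figure D3:**
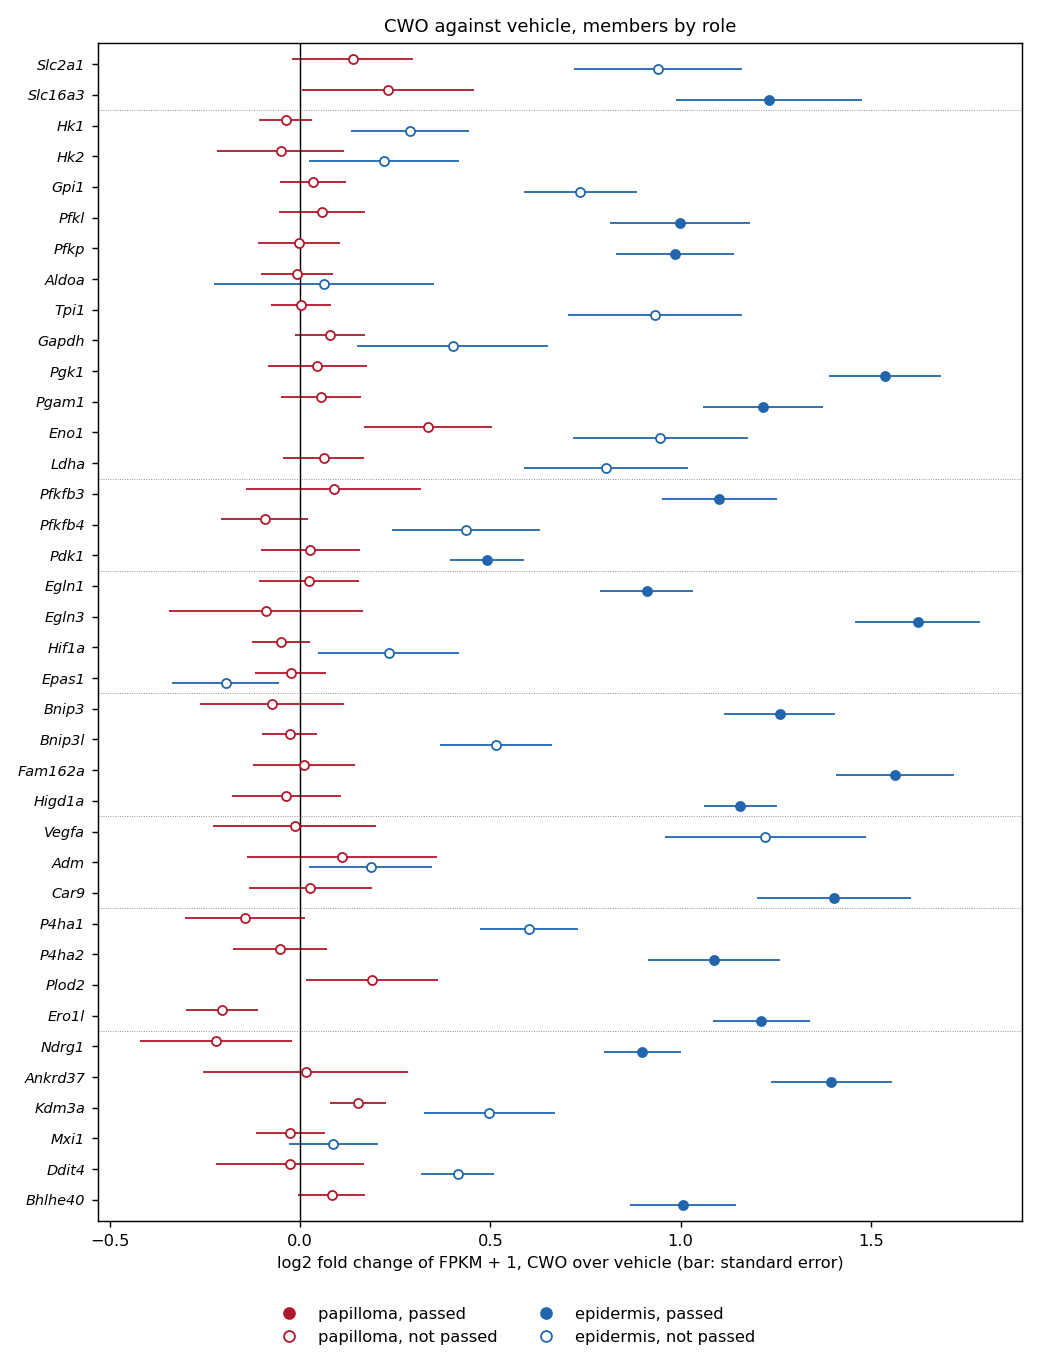
Log2 fold change with its standard error (log2 of FPKM + 1) of CWO over vehicle for each gene, by role, in papilloma (red, above) and epidermis (blue); filled points passed limma's test. Epidermis values are filled for 18 genes and lie right of 0 for 36 of 37, papilloma values cluster at 0 with none filled, and Plod2 has no epidermis value because it was below the filter.

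Without the muscle-rich vehicle libraries the median of the list was nearly the same, while single enzymes moved. Without vehicle 1 and 2, which leaves 1 vehicle library assumed to vary like the CWO libraries, the median was 0.92 and 34 of 37 values were positive. Pgk1 then stood at 1.77, and with 1 vehicle library no call is given here. With the mean of the muscle genes as a covariate the median was 0.93, 35 values were positive, and Pgk1 (1.79, adjusted p = 0.0192) and Higd1a (1.19, adjusted p = 0.0440) passed. Calls fell over all genes too, to 0.122% of 12289 with the covariate, against 1.99% in the reported fit. Leaving out vehicle 1 and 2 moved Aldoa to 0.70, Gapdh to 0.92, Ldha to 1.21 and Hk2 to 0.62, against 0.063, 0.40, 0.80 and 0.22 with all libraries. It moved Slc2a1 to 0.62 and Eno1 to 0.59, against 0.94 and 0.95, and turned Hif1a to -0.073 and Mxi1 to -0.047. None of these 8 passed with all libraries. The 26 genes that are not glycolytic enzymes averaged 5.04, 4.98 and 4.85 on the log2 scale in CWO 1, 2 and 3, against 4.13, 4.07 and 4.20 in vehicle 1, 2 and 3. The 12 glycolytic enzymes averaged 7.46, 7.30 and 6.98 with CWO, against 6.44, 6.70 and 6.32 with vehicle, with muscle-rich vehicle 2 the highest vehicle library.

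**Figure D4:**
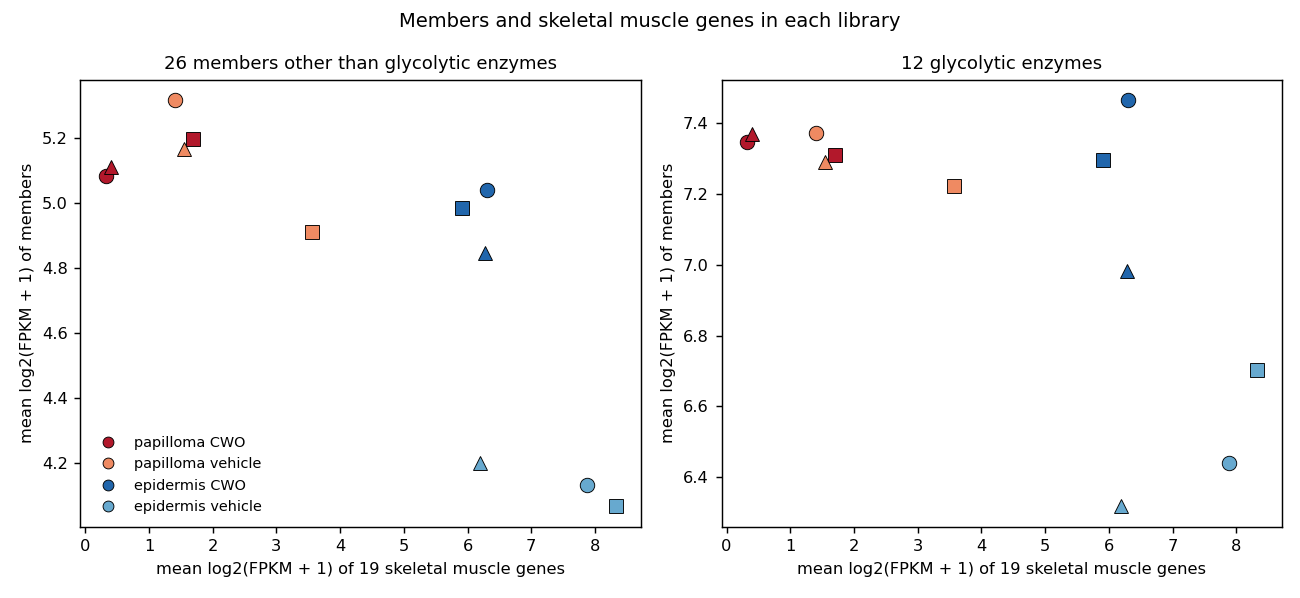
Mean log2(FPKM + 1) of the listed genes that are not glycolytic enzymes (left) and of the 12 glycolytic enzymes (right) against the mean log2(FPKM + 1) of 19 skeletal muscle genes, 1 point per library. The muscle mean was 5.91 to 6.30 in the 3 CWO epidermis libraries and 6.19 in vehicle epidermis 3, and all 3 CWO libraries lie above vehicle epidermis 3 in both panels.

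Calls also shifted with single libraries: 10 of the 37 genes were called without vehicle 1, 14 without vehicle 2, 21 without vehicle 3, 11 without CWO 1, 13 without CWO 2 and 20 without CWO 3. The share of all genes called shifted along with them. It was 0.685% without vehicle 1, 0.854% without vehicle 2 and 5.63% without vehicle 3. Without CWO 1, 2 or 3 that share was 0.528%, 0.776% and 2.7%. The 9 genes called in each of these 6 fits were Pgk1, Pgam1, Egln3, Bnip3, Fam162a, Higd1a, Ero1l, Ndrg1 and Ankrd37. The authors' deposited table of changed genes in epidermis lists 176 genes, and 14 of the 18 genes called here are among them. In the authors' deposited table the log2 fold changes were 1.55 for Pgk1, 1.64 for Egln3, 1.56 for Fam162a, 1.09 for Higd1a and 2.16 for Car9. The 4 called here and not listed there were Slc16a3, Pfkl, Pgam1 and Pdk1.

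Levels of 4 enzymes are uncertain, because the FPKM and the authors' counts rest on very different numbers of reads, and the cause was not tested. In papilloma the recovered fragments behind the FPKM were 75.0 times the authors' mean count for Eno1, 49.6 times for Gapdh, 15.1 times for Pgam1 and 5.46 times for Pgk1, where the median gene had 0.983. For Pgk1 in epidermis the ratio was 5.59, and its log2 fold change on the authors' own counts, given above, was 1.55 against 1.54 from FPKM. Eno1, Gapdh and Pgam1 are not among the 176 genes of that table. For Ero1l the ratio was 2.13 in epidermis.

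Other genes of these pathways moved in part. Of 16 other glycolysis genes tested, 2 rose and 0 fell (median -0.11). Aldoc, an aldolase, averaged 55.4 ± 8.63 FPKM in CWO epidermis and 25.5 ± 1.28 in vehicle epidermis (log2 fold change 1.08, adjusted p = 0.00784). Slc16a1, the lactate carrier MCT1, averaged 28.2 ± 1.76 FPKM in CWO epidermis and 17.02 ± 2.90 in vehicle epidermis (log2 fold change 0.71, adjusted p = 0.0404). Of 35 other hypoxia-responsive genes, 3 rose and 0 fell (median 0.29). Ak4, an adenylate kinase of mitochondria, averaged 30.5 ± 3.46 FPKM in CWO epidermis and 12.2 ± 1.19 in vehicle epidermis (log2 fold change 1.25, adjusted p = 0.00450). Tfrc, the transferrin receptor, averaged 39.2 ± 3.23 FPKM in CWO epidermis and 17.1 ± 1.98 in vehicle epidermis (log2 fold change 1.15, adjusted p = 0.00577). Hilpda, a lipid droplet protein, averaged 52.7 ± 6.45 FPKM in CWO epidermis and 26.3 ± 1.08 in vehicle epidermis (log2 fold change 0.97, adjusted p = 0.00784). None of 13 other HIF pathway regulators (median 0.0069) and none of 22 genes of pyruvate entry and the citrate cycle (median -0.039) passed limma's test; over all genes 1809 of 12289 reached an unadjusted p under 0.05.

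Markers of other cell types and states moved in the same libraries. Of 13 cell cycle genes, 9 rose (median 1.33), with Ccna2 at 19.3 ± 2.57 FPKM in CWO epidermis and 6.58 ± 1.69 in vehicle epidermis (log2 fold change 1.43, adjusted p = 0.00784), and Birc5, Aurkb and Ccnb1 also rose. Their summed level was 176 to 246 FPKM in CWO epidermis and 73.4 to 111 in vehicle epidermis. Of 7 fibroblast genes tested, Col1a1 and Col1a2 fell (-1.28 and -1.18), and the summed fibroblast level was 18.97 to 31.02 FPKM with CWO and 35.8 to 80.6 with vehicle. The neutrophil gene S100a9 rose (1.84), 1 of 10 immune genes, and of 10 sebaceous genes Elovl3 rose (1.78) and Scd3 fell (-1.95). None of 10 keratinocyte, 7 hair follicle, 5 endothelial, 4 red cell and 5 fat cell genes tested passed. What part these differences have in the rise of the hypoxia and glycolysis genes was not tested.

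Shares within gene families, chosen after the values were seen, show which family members carried the level. Of the summed FPKM of Egln1, Egln2 and Egln3, Egln3 made up 57.8% ± 2.10 in CWO epidermis and 38.3% ± 3.85 in vehicle epidermis (SD, n = 3 each; exact permutation p = 0.1, the smallest possible). In vehicle epidermis 1 and 2, which held more muscle RNA, the Egln3 share was 35.9% and 36.4%, against 42.8% in vehicle epidermis 3. In papillomas the Egln3 share was 67.1% ± 4.50 with CWO and 68.6% ± 6.16 with vehicle. Pfkfb3 made up 24.00% ± 5.53 of the 4 Pfkfb genes in CWO papillomas, 21.7% ± 3.67 in vehicle papillomas, 45.6% ± 4.21 in CWO epidermis and 27.1% ± 1.05 in vehicle epidermis. In papillomas Pfkfb4 was the larger share, 48.4% ± 7.41 with CWO and 50.1% ± 2.89 with vehicle, where it was 16.3% ± 3.13 in CWO epidermis and 15.7% ± 4.04 in vehicle epidermis. Hk2 was 51.7% ± 3.99 of Hk1 plus Hk2 in CWO papillomas, 51.9% ± 4.70 in vehicle papillomas, 19.1% ± 1.35 in CWO epidermis and 19.8% ± 4.15 in vehicle epidermis. The Hk2 share was 22.3% and 22.2% in vehicle epidermis 1 and 2 but 15.1% in vehicle epidermis 3, against 17.6% to 20.2% in CWO epidermis. What part muscle RNA has in these shares was not tested. Ldha was at least 81.3% of Ldha plus Ldhb in every library.

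In papillomas no gene of the list passed the test of CWO against vehicle. All 38 were tested, 0 rose and 0 fell, and the same held for all 12145 genes tested, with 0% called higher and 0% called lower. At an unadjusted p under 0.05 limma had 306 genes, of which 0 were in the list, and limma-voom on recovered fragments also called 0 genes. The median log2 fold change was 0.0059 over the 38 genes, with 20 positive and 18 negative values, and -0.0059 over all genes. The values ran from -0.22 (Ndrg1) to 0.34 (Eno1), and each adjusted p rounded to 1.00.

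The genes that rose in CWO epidermis overlapped between the papilloma groups. Pgk1 had 239.6, 224 and 223 FPKM in CWO papillomas and 273, 191 and 209 in vehicle papillomas. Fam162a had 971, 973 and 795 FPKM with CWO and 1044, 787 and 896 with vehicle. Higd1a had 65.6, 64.9 and 49.2 FPKM with CWO and 70.2, 52.5 and 61.5 with vehicle. For all 3 genes, vehicle papilloma 1 held the highest value of the 6 libraries. Egln3 had 165, 156 and 103 FPKM with CWO and 184, 102 and 169.5 with vehicle. Ero1l had 35.3, 34.7 and 36.4 FPKM with CWO and 45.8, 36.03 and 41.9 with vehicle. Bnip3 had 61.2, 54.7 and 48.9 FPKM with CWO and 75.7, 43.3 and 58.4 with vehicle. The vehicle papillomas spread more widely than the CWO papillomas for Egln3, Ero1l and Bnip3, and the groups overlapped for each.

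Car9 had 2.00, 2.14 and 1.52 FPKM with CWO and 2.27, 1.32 and 1.96 with vehicle, low in every papilloma. P4ha2 had 7.80, 8.10 and 10.3 FPKM with CWO and 10.2, 8.63 and 8.40 with vehicle. Pgam1 had 402, 450.3 and 422 FPKM with CWO and 466, 369.8 and 396 with vehicle. These 3 genes overlapped as well. Pfkp had 48.5, 44.5 and 40.5 FPKM with CWO and 51.1, 41.8 and 41.2 with vehicle. Pfkl had 64.8, 66.04 and 78.96 FPKM with CWO and 75.1, 59.3 and 67.3 with vehicle. Bhlhe40 had 69.7, 81.1 and 76.00 FPKM with CWO and 74.8, 65.1 and 74.1 with vehicle. The groups overlapped for both phosphofructokinase subunits and for Bhlhe40.

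Slc16a3 had 37.8, 35.00 and 29.2 FPKM with CWO and 42.4, 21.9 and 25.3 with vehicle. Pfkfb3 had 8.45, 13.7 and 14.1 FPKM with CWO and 12.2, 8.08 and 13.5 with vehicle. Pdk1 had 10.4, 10.9 and 9.26 FPKM with CWO and 12.2, 8.70 and 9.29 with vehicle. Vehicle papilloma 2 was the lowest library for these 3 genes. It also had the most muscle RNA of the papillomas (a summed 454 FPKM against 9.75 to 72.3 in the other 5) and the lowest mean of the 38 genes on the log2 scale, 5.64 against 5.80 to 5.96; what part the muscle RNA has in this was not tested. Egln1 had 42.8, 43.2 and 33.4 FPKM with CWO and 45.03, 34.4 and 38.03 with vehicle. Ndrg1 had 61.7, 66.5 and 70.9 FPKM with CWO and 89.7, 54.2 and 95.6 with vehicle. Ankrd37 had 8.23, 14.4 and 15.7 FPKM with CWO and 11.7, 9.11 and 16.9 with vehicle. Their groups overlapped too. Kdm3a was the 1 gene of the 38 whose CWO libraries all lay above its vehicle libraries (18.7 to 20.7 against 16.9 to 17.8 FPKM, log2 fold change 0.15), where 3.02% of all genes did so. In the authors' deposited papilloma table the log2 fold changes of the 38 genes ran from -0.581 (Eno1) to 0.223 (Plod2), and all their adjusted p-values were 1. Eno1 thus had the lowest value in the authors' deposited table, on a mean count of 3.64, and the highest from FPKM, with the opposite sign.

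The CWO effect in papilloma minus the CWO effect in epidermis was tested in 1 fit of all 12 libraries. It was lower for 11 of the 38 genes and higher for 0, where 0.713% of all 13187 genes tested were lower and 0.0303% were higher. The 11 were Pfkp, Pgk1, Pgam1, Egln3, Bnip3, Fam162a, Higd1a, Car9, P4ha2, Ero1l and Bhlhe40. The median difference was -0.85 on the log2 scale over the 38 genes and -0.043 over all genes, and 36 of the 38 values were negative. Duration and number of doses differed along with tissue, so tissue and schedule cannot be told apart.

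Ero1l had the smallest adjusted p, with a difference of -1.42 (SE 0.157, adjusted p = 0.00168). Pgk1 had -1.49 (SE 0.208, adjusted p = 0.00812), Fam162a -1.55 (SE 0.216, adjusted p = 0.00812) and Higd1a -1.19 (SE 0.178, adjusted p = 0.0115). These 4 were called in each of the 12 fits that left out 1 library. The largest difference on the log2(FPKM + 1) scale was that of Egln3, -1.71 (SE 0.334, adjusted p = 0.0392), and Car9 had -1.38 (SE 0.268, adjusted p = 0.0392). Each of the 7 called genes beside Ero1l, Pgk1, Fam162a and Higd1a lost its call in 6 or more of the 12 fits. With 1 library left out, the share of all genes called ran from 0.259% (without epidermis CWO 1) to 2.5% (without epidermis vehicle 3). The number of listed genes called was 4 without papilloma vehicle 1, papilloma CWO 1 or papilloma CWO 2, and 5 without papilloma vehicle 3, papilloma CWO 3, epidermis CWO 1 or epidermis vehicle 1. It was 6 without epidermis CWO 2 or epidermis vehicle 2, 10 without papilloma vehicle 2, 12 without epidermis vehicle 3 and 16 without epidermis CWO 3. Without epidermis vehicle 1 and 2 together it was 2, with a median of -0.86. The difference did not pass for Egln1 (-0.89, SE 0.188, adjusted p = 0.0573) and Ndrg1 (-1.12, SE 0.238, adjusted p = 0.0585), which had risen in epidermis.

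Papillomas given vehicle held higher levels of most of these genes than epidermis given vehicle. The vehicle epidermis libraries are also the baseline of the CWO comparison in epidermis, so these results are not independent. Of 38 tested, 26 were higher, 4 lower and 8 did not pass, where 31.8% of all 12791 genes tested were higher and 38.3% lower. Plod2 and Car9 are among the 26 although they passed the filter on low values only through papillomas, and of the other 36 genes 24 were higher and 4 lower. The median log2 fold change was 0.76 over the 38 genes, 0.76 without Plod2 and Car9, and -0.071 over all genes. Papilloma libraries lay wholly above epidermis libraries for 27 genes and wholly below for 4, where 33.8% and 40.7% of all genes did so. The tissues also differ in their cells. The summed fibroblast level was 396 to 585 FPKM in vehicle papillomas and 35.8 to 80.6 in vehicle epidermis. The endothelial level was 46.3 to 55.7 FPKM in vehicle papillomas and 5.65 to 20.6 in vehicle epidermis. The summed immune level was 9731 to 14771 FPKM in vehicle papillomas and 287 to 364 in vehicle epidermis. Of the 10 immune genes, however, 5 were higher and 5 lower in vehicle papillomas (median log2 fold change -0.20), so this sum does not stand for the immune list. Muscle genes summed to 57.2 to 454 FPKM in vehicle papillomas and to 4021 to 19746 in vehicle epidermis. All 13 cell cycle genes were higher in vehicle papillomas, summing to 330 to 366 FPKM against 73.4 to 111 in vehicle epidermis. All 10 sebaceous genes were lower, summing to 177 to 436 FPKM against 2483 to 2770. What part these cells and states have in the tissue difference of the listed genes was not tested.

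On the log2(FPKM + 1) scale the secreted peptides Vegfa and Adm had the largest fold changes of the list, and Hif1a was among the 5 largest. This scale understates the change of low genes such as Plod2. Vegfa had 86.04, 46.3 and 59.8 FPKM in vehicle papillomas, against 6.86, 5.23 and 8.10 in vehicle epidermis, a log2 fold change of 3.04 (SE 0.227, adjusted p = 9.43e-06). Adm had 16.4, 8.18 and 16.1 FPKM in papillomas, against 1.79, 1.32 and 1.12 in epidermis (2.55, SE 0.251, adjusted p = 4.17e-05). Hif1a had 105, 91.2 and 92.5 FPKM in papillomas, against 16.4, 16.1 and 22.7 in epidermis (2.34, SE 0.140, adjusted p = 2.94e-06). No epidermis library came near a papilloma library in any of the 3. Epas1 had 21.6, 25.9 and 24.02 FPKM in papillomas, against 9.40, 8.04 and 7.65 in epidermis (1.41, SE 0.116, adjusted p = 1.58e-05). Plod2 had 7.91, 6.01 and 4.88 FPKM in papillomas, against 0.338, 0.190 and 0.261 in epidermis, and is given as a description. Both tissues again stood apart. Fam162a, at 1044, 787 and 896 FPKM in papillomas against 161, 152 and 185 in epidermis, had a log2 fold change of 2.44 (SE 0.134, adjusted p = 2.02e-06). Pfkfb4 had 24.3, 23.9 and 29.00 FPKM in papillomas, against 4.34, 4.66 and 4.26 in epidermis (2.30, SE 0.113, adjusted p = 1.19e-06). All of these genes separated the tissues in every library.

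Of the 12 glycolytic enzymes 10 were higher in vehicle papillomas, by 0.35 (Pfkp) to 1.97 (Hk2) on the log2 scale; Hk1 and Aldoa did not pass (-0.078 and -0.55). Both transporters were higher, Slc2a1 by 1.89 and Slc16a3 by 1.04. Egln3 was higher (1.25) while Egln1 was lower (-0.30), and Bhlhe40 (1.86), Ero1l (1.69), Bnip3l (0.75), P4ha2 (0.53), Higd1a (0.53) and Car9 (0.50) were higher. Pdk1, P4ha1 and Mxi1 were lower (-0.66, -0.40 and -0.66). Bnip3, Ndrg1, Ankrd37, Kdm3a, Ddit4 and Pfkfb3 did not pass. Leaving out 1 library ended the calls of Pfkp (vehicle epidermis 1 or 2, vehicle papilloma 1), Eno1 (vehicle epidermis 1, vehicle papilloma 3), Car9 (vehicle epidermis 1 or 2, vehicle papilloma 1 or 3), P4ha1 (vehicle epidermis 1 or 3, vehicle papilloma 2 or 3) and Egln1 (any vehicle library but papilloma 1). The highest adjusted p was 0.121 for Pfkp, 0.0770 for Eno1, 0.0919 for Car9, 0.144 for P4ha1 and 0.153 for Egln1. Without vehicle epidermis 1 and 2 together, 25 of the 38 genes were called in either direction, where 60.4% of all 11944 genes tested were called, and the median was 0.98. Of 22 genes of pyruvate entry and the citrate cycle, 1 was higher and 13 lower in the same comparison (median -0.45).

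Among CWO libraries the tissues stood differently. Of 38 genes 14 were higher in papillomas, 16 lower and 8 did not pass, where 29.1% of all 12691 genes tested were higher and 39.7% lower. Plod2 is among the 14 although it passed the filter only through papillomas, and of the other 37 genes 13 were higher and 16 lower. The median log2 fold change was 0.0098 over the 38 genes and -0.12 over all genes. Median-ratio scaling moved the all-gene median by 0.11, and gave 14 higher and 15 lower with a median of 0.12. Papilloma libraries lay wholly above epidermis libraries for 14 genes and wholly below for 16, where 31.4% and 42.7% of all genes did so. This comparison shares no library with that of the vehicle groups. The summed fibroblast level was 433 to 661 FPKM in CWO papillomas and 18.97 to 31.02 in CWO epidermis, and the muscle level 9.75 to 72.3 in CWO papillomas and 3343 to 4335 in CWO epidermis, and their part in the differences was not tested.

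Adm had 11.8, 14.3 and 16.5 FPKM in CWO papillomas, against 1.39, 1.93 and 1.87 in CWO epidermis (2.47, SE 0.150, adjusted p = 2.94e-06). Hif1a had 93.1, 93.8 and 91.1 FPKM in papillomas, against 20.6, 17.8 and 26.99 in epidermis (2.06, SE 0.143, adjusted p = 5.71e-06). Plod2, given as a description, had 6.24, 6.79 and 8.64 FPKM in papillomas, against 0.342, 0.360 and 0.440 in epidermis. The papilloma libraries were again far above the epidermis libraries for these 3 genes. Vegfa had 54.9, 72.9 and 57.7 FPKM in papillomas, against 18.3, 23.7 and 10.9 in epidermis (1.81, SE 0.249, adjusted p = 2.58e-04). Pfkfb4 had 27.2, 21.1 and 24.1 FPKM in papillomas, against 5.99, 8.79 and 4.76 in epidermis (1.77, SE 0.195, adjusted p = 7.10e-05). Epas1 had 25.6, 22.6 and 21.99 FPKM in papillomas, against 6.14, 7.79 and 7.62 in epidermis (1.58, SE 0.122, adjusted p = 9.95e-06). For Vegfa, Pfkfb4 and Epas1 every papilloma library lay above every epidermis library. Of the other genes higher in papillomas, Hk2 (1.69), Slc2a1 (1.09), Bhlhe40 (0.94) and Fam162a (0.89) followed in size.

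The share lower in CWO papillomas, 42.1% of the 38 genes, was near the 39.7% of all genes, so it is no result about the list. The 16 genes lower in CWO papillomas than in CWO epidermis included the oxygen sensor Egln1, mitochondrial genes and glycolytic enzymes. This comparison shares the CWO epidermis libraries with that of CWO against vehicle in epidermis. Egln1 stood at -1.19, Ankrd37 at -1.17, Ndrg1 at -1.15, Pdk1 at -1.12, Bnip3 at -0.91 and Car9 at -0.88. Higd1a (-0.67), Pfkp (-0.64), P4ha2 (-0.62), Pfkfb3 (-0.56) and Pgk1 (-0.45) were lower as well, with P4ha1 (-1.14), Mxi1 (-0.77), Aldoa (-0.62), Ddit4 (-0.57) and Hk1 (-0.40). Pgk1, Higd1a, Car9, Pfkp and P4ha2 were lower in papillomas among CWO libraries and higher among vehicle libraries. The difference of the CWO effects given above, in which these 5 were called, is the same contrast in another order. Those calls are therefore not separate support, and they test a difference and not a change of sign. The calls of Pfkp, Car9 and P4ha2 in it ended in 10, 9 and 9 of the 12 fits that left out 1 library. Among vehicle libraries Car9 passed the filter only through papillomas. Leaving out 1 CWO library ended the calls of P4ha2 (epidermis 1), Pfkfb3 (epidermis 1 or 2, papilloma 1), Ldha and Ero1l (epidermis 3 or any papilloma) and Hk1 (any but epidermis 3). The highest adjusted p was 0.0553 for P4ha2, 0.0778 for Pfkfb3, 0.0901 for Ldha, 0.113 for Ero1l and 0.137 for Hk1. The other 25 of 30 calls held in each fit in which the gene was tested, and Plod2 was tested in only 3 of these fits.

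**Figure D5:**
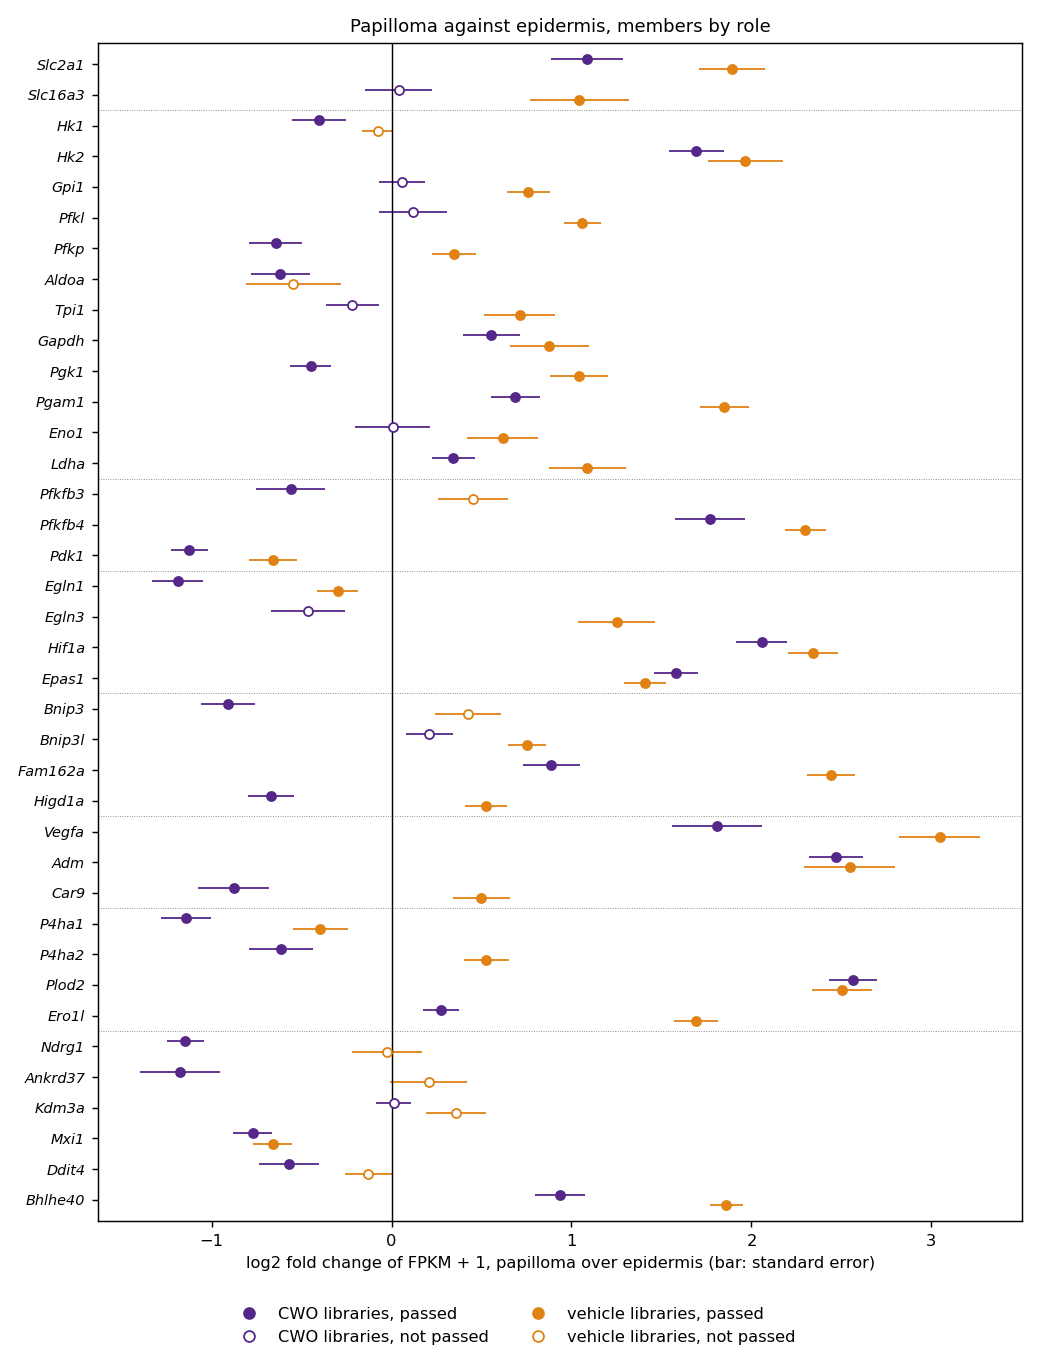
Log2 fold change with its standard error (log2 of FPKM + 1) of papilloma over epidermis for each gene, among CWO libraries (purple) and among vehicle libraries (orange); filled points passed limma's test. Vegfa, Adm, Plod2 and Hif1a lie far right in both, while Pgk1, Higd1a, Car9, Pfkp and P4ha2 lie right of 0 among vehicle libraries and left of 0 among CWO libraries.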

How the data were processed

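PolyA RNA of 12 libraries was sequenced from TruSeq libraries, per the labels' protocols. Per the submitters' processing notes, bcl2fastq 1.8.4, TopHat2 2.0.4, Cufflinks 2.0.2, DESeq and the mm9 genome were used. The deposited per-library files hold FPKM with its interval and a Cufflinks status, and duplicate symbols were summed here. The authors' comparison tables hold mean normalised counts (the signal of each group), a fold change (ratio), its log2 value and a p-value with its adjusted value, per the file headers. The authors' epidermis table holds genes up to an adjusted p of 0.00544 only.

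Each comparison was fitted on log2(FPKM + 1) by limma 3.58.1 (R 4.3.3), whose prior variance followed the mean level, and tested two-sided, adjusted by Benjamini-Hochberg over all genes tested and called under 0.05. A gene entered a fit if 3 or more of its libraries reached an FPKM of 1 and each group had 2 values. Short non-coding RNAs (738 symbols) did not enter. A fold change on this scale understates the change of low genes. CWO was compared with vehicle within epidermis and within papilloma, these effects with each other over 12 libraries, and papilloma with epidermis under each treatment. Fragments were recovered from FPKM and its interval, and 68.2% to 69.5% per library of the values under 500 were whole within 0.02. The fit was tested on simulated data. The alternatives were pseudocounts of 0.1 and 3, other filters, scaling, a replicate block, all 12 libraries in 1 fit, limma-voom on recovered fragments, values of any status, a muscle covariate, vehicle epidermis 1 and 2 left out, and each library left out.

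The 38 genes and all lists were chosen with earlier results of these data known. Values in every library are given for each listed gene called in a CWO comparison or the difference, for Hif1a, Epas1 and Vegfa, and for the 5 with the largest change among those called in each tissue comparison. Of other lists, up to 4 called genes with the smallest p in CWO epidermis are named. Replicate numbers were not treated as pairs in the reported fits, and whether they pair samples is not settled. Promoters came from RefSeq on GRCm38.p6, and no position was moved between builds.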

Additional observations from a re-analysis of the deposited data

Results flagged for a closer look

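In 11 genes the CWO effect in papilloma differed from the CWO effect in epidermis, by limma's test of the difference itself over 12 libraries. All 11 differences were negative, that is, smaller in papilloma. Among all 13187 genes tested, 0.713% were lower and 0.0303% were higher. On the log2 scale the difference was -0.99 for the phosphofructokinase subunit Pfkp, -1.49 for Pgk1 and -1.16 for the mutase Pgam1. It was -1.71 for the oxygen sensor Egln3. Of the mitochondrial genes, Bnip3 had -1.33, Fam162a had -1.55 and Higd1a had -1.19. Car9 had -1.38, P4ha2 had -1.14, Ero1l had -1.42 and the repressor Bhlhe40 had -0.92. The adjusted p-values ran from 0.00168 for Ero1l to 0.0476 for Pfkp. Ero1l, Pgk1, Fam162a and Higd1a kept their calls whichever of the 12 libraries was left out. The other 7 genes lost theirs in 6 (Pgam1) to 10 (Pfkp) of those fits. Epidermis was exposed for 24 h and papillomas for 6 weeks, so the tissue and the schedule cannot be told apart.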

How the results depend on the processing

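No called value changed sign under any alternative, in any of the 5 comparisons. In epidermis 245 genes and 18 of the 38 were called as reported; without a filter on low values 44 and 8 were called, with the muscle covariate 15 and 2, and without vehicle 1 and 2 together 12 and 1. All 12 libraries in 1 fit gave 656 genes and limma-voom on recovered fragments 162. With 1 library left out the counts ran from 64 to 684 genes and from 10 to 21 of the 38. Of the 18 genes, Pgk1 alone was called in all 17 alternatives. In papilloma 0 genes were called as reported and 1 with all 12 libraries in 1 fit; of the 38 there were 0 in every alternative.

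For the difference of CWO effects 98 genes and 11 of the 38 were called as reported. Without a filter 63 and 4 were called, with limma-voom 49 and 7, and with median-ratio scaling 94 and 7. These gene counts were 0.33%, 0.373% and 0.714% of all genes tested, against 0.743% as reported. Without epidermis vehicle 1 and 2 together the median of the 38 was -0.86. With 1 library left out the counts ran from 34 to 328 genes and from 4 to 16 of the 38. Pgk1 and Ero1l were called in all 22 alternatives. In the tissue comparisons 25 to 32 of the 38 were called with vehicle and 25 to 31 with CWO, against 30 in each as reported. Of all genes, 54.9% to 72.1% were called with vehicle and 55% to 70% with CWO, against 70.2% and 68.8% as reported. The muscle covariate was not run there. The cause of these shifts was not tested; a fit without vehicle 1 and 2 rests on fewer samples.

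With the replicate number as a block, epidermis had 54 genes and 7 of the 38 called, papilloma 4 and 0, and the difference 25 and 2. Same-numbered samples showed no common pairing across comparisons, but in papilloma their correlations were all positive, so pairing there is not excluded. Deviations from the group means of same-numbered samples correlated at 0.03, -0.44 and -0.36 in epidermis, at 0.28, 0.14 and 0.02 in papilloma, at 0.20, -0.02 and 0.25 between tissues with vehicle, and at -0.06, 0.07 and -0.23 between tissues with CWO. Genes with few fragments, such as Plod2, Adm and Car9, are limited by depth.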
